A study of Mus musculus with 9 samples.

Results

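Laminins, nidogens, perlecan and agrin are the large glycoproteins that basement membranes are built from. The genes described here are Lama2, Lama4, Lama5, Lamb1, Lamb2, Lamc1, Nid1, Nid2, Hspg2 and Agrn, which encode 3 laminin α chains, 2 β chains, 1 γ chain, both nidogens, perlecan and agrin. They were chosen by name, and every non-control probe that carries 1 of these names on the array was read. They are 10 of the 37316 gene names on the array, and all 10 are among the 29410 genes that were bright enough to be tested. A gene was tested when at least 1 of its probes was well above background, by the scanner software's own test, on all 3 arrays of at least 1 group. The 10 genes have 29 probes, of which 24 met this rule.

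The series measured gene expression in bone marrow megakaryocytes (MKs) of male mice after ionizing radiation (IR). Total RNA from sorted mature MKs (mMKs) was labelled with Cy3 and hybridized to 1-colour Agilent arrays, 1 array for each sample and 9 in all. The methods describe mMKs as marrow cells selected first for CD41 and then for CD42d. Irradiated mice received 5 Gy of γ-rays to the whole body. The groups are Ctrl (mice without IR, 3 arrays), 1 dpi (1 day post IR, 3 arrays) and 3 dpi (3 days post IR, 3 arrays). The labels say that each replicate came from an independent experiment with its own donors, and they call the mice background-matched without naming a strain, genotype or age. No pooling of animals is stated.

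A laminin is a trimer of an α, a β and a γ chain, and the trimers join at their short arms into a sheet on the cell surface. Nidogens link that sheet to the collagen IV network, and perlecan and agrin, which carry heparan sulphate, tie the layers to each other and to cell receptors such as dystroglycan and integrins. In bone marrow a basement membrane lies under the sinusoidal endothelium, through which MKs push proplatelets.

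The share of spots well above background was 69.1% on Ctrl replicate 1 and 79.5% and 80.8% on Ctrl replicates 2 and 3. It was 72.3%, 74.8% and 75.6% on the 1 dpi arrays and 81.8%, 81.6% and 81.8% on the 3 dpi arrays. The slide of Ctrl replicate 1 held no other array of the series, and the remaining 8 arrays shared a slide with all 3 groups on it. A fit with the slide as a term therefore gives the same values as leaving Ctrl replicate 1 out, and these within-slide values are given beside the results for each of the 10 genes. Only 3 arrays a group limit the precision of every value.

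Each level below is the log2 intensity of a probe after subtraction of its array's 75th percentile, so that a level of 0 is the array's 75th percentile. A level depends on the probe as well as on the RNA, and no level is set against that of another probe. Where a gene had several tested probes, the brightest over the 9 arrays stands for it and values of other probes are given beside it. A gene is "called" in a comparison when its adjusted p from limma, over all genes tested, is under 0.05 and its change is at least 2-fold. With 3 arrays in each of 2 groups, the smallest two-sided p of an exact permutation test is 0.10, so such a test cannot reach that threshold and every call rests on a test that assumes a distribution of the values. With bulk RNA, fewer cells of a type and less RNA per cell cannot be told apart.

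The level was well above background on all 9 arrays for the brightest probe of each of the 10 genes. At 1 dpi, 6 of the 10 genes were called higher than Ctrl and 0 lower, where 12.3% of all genes tested were called higher and 2.87% lower. At 3 dpi, 8 of the 10 were called higher than Ctrl and 0 lower, beside 6.98% and 1.82% of all genes. From 1 dpi to 3 dpi, 2 of the 10 rose and 1 fell, beside 3.97% and 4.82% of all genes. Both irradiated groups are compared with the same Ctrl arrays. The arrays of the groups did not overlap for 10 of 10 genes at 1 dpi against Ctrl, for 9 at 3 dpi against Ctrl and for 9 at 3 dpi against 1 dpi, where 67.5%, 47.0% and 65.5% of all genes tested did not overlap.

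The median log2 fold change of the 10 genes was 1.61 at 1 dpi against Ctrl, 1.51 at 3 dpi against Ctrl and 0.33 at 3 dpi against 1 dpi. The medians of all genes tested were 0.25, 0.11 and -0.11, so the genes as a whole are not centred on 0 under this scaling. Relative to them, the medians of the 10 genes were 1.37, 1.40 and 0.44. Of the 4468 genes called at 1 dpi, 81.1% were higher. That share was 56.2% after quantile normalization, 48.8% when each array was scaled to its median and 87.9% with normexp background correction. At 3 dpi against Ctrl 79.4% of the 2587 called genes were higher, and 66.1% in the deposited table of the authors and 52.7% with no minimum fold change. Of the 2588 genes called between 3 dpi and 1 dpi 45.2% were higher, against 62.9% after quantile normalization and 67.2% with scaling to the median, and against 24.8% with normexp background correction and 26.7% with no filter on dim probes.

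**Figure D1:**
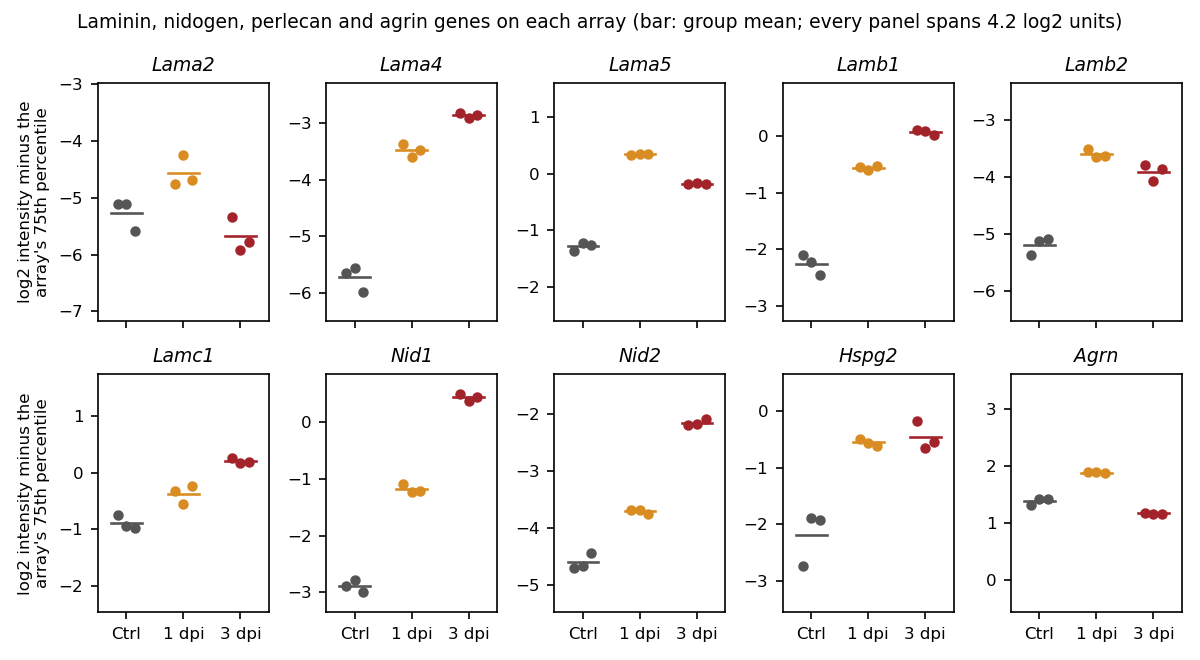
Level of each of the 10 genes on each array, as log2 intensity minus the array's 75th percentile (vertical axis), by group (horizontal axis), with 1 point for each array and a bar at the group mean. The 1 dpi points lie above the Ctrl points in every panel, and the 3 dpi points lie highest for Lama4, Lamb1, Lamc1, Nid1 and Nid2.

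Of the 3 α chain genes among the 10, Lama4 had the largest changes against Ctrl on its brightest probe. Lama4 encodes the short α chain of blood vessel laminin. Its brightest probe, the 60 bases at chr10:38825794-38825853 (mm9, + strand), is printed because the largest α chain change against Ctrl among the 10 genes rests on it.
Lama4 probe: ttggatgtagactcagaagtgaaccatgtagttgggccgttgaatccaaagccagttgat
The level of Lama4 was -5.64, -5.55 and -5.97 on the Ctrl arrays, -3.37, -3.60 and -3.47 on the 1 dpi arrays and -2.82, -2.92 and -2.86 on the 3 dpi arrays. The 3 groups stood apart without overlap in the order Ctrl, 1 dpi, 3 dpi. Lama4 rose 4.74-fold at 1 dpi (log2 2.24, SE 0.12, adjusted p 6.3e-06) and 7.24-fold at 3 dpi (log2 2.86, adjusted p 1.8e-06) against Ctrl. Within the shared slide these log2 values were 2.28 and 2.90, and with normexp background correction they were 1.41 and 1.51, both still called. From 1 dpi to 3 dpi the log2 difference was 0.61 (adjusted p 0.0043), under the 2-fold threshold and so not called.

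Lama4 has other probes that did not all move alike. The probe at chr10:38773604-38773663 was not well above background on any Ctrl array, was so on 2 of 3 arrays at 1 dpi and on all 3 at 3 dpi, and was at least 2.43-fold higher at 3 dpi than Ctrl. Such a bound sets the mean of the bright group against, on each array of the dim group, the probe's own level or the lowest level well above background there, whichever is larger. The probe at chr10:38777410-38777469 gave log2 fold changes of 0.81 at 1 dpi and 0.55 at 3 dpi against Ctrl and -0.26 between the 2 times, none of them called. The remaining probe, at chr10:38773974-38774033, was not well above background on any of the 9 arrays.

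Lama5 encodes the α chain of the laminin most widespread in adult vessels and epithelia, and the array holds 1 probe for it, at chr2:179911079-179911138 (mm9, - strand). Its level was -1.36, -1.22 and -1.26 on the Ctrl arrays, 0.32, 0.35 and 0.35 at 1 dpi and -0.19, -0.16 and -0.19 at 3 dpi. All 1 dpi arrays were above all 3 dpi arrays, and these in turn above all Ctrl arrays. Lama5 rose 3.07-fold at 1 dpi (log2 1.62, SE 0.06, adjusted p 1.2e-06) and was 2.14-fold higher than Ctrl at 3 dpi (log2 1.1, adjusted p 5.6e-06). The within-slide values were 1.58 and 1.06. Between 3 dpi and 1 dpi the log2 difference was -0.52 (adjusted p 0.00035), not called. The call at 3 dpi sat close to the 2-fold threshold and was lost at 0.98 with scaling to the array median and at 0.99 relative to the median of all genes.

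Lama5 and the β chain gene Lamb2 had the most similar pattern of any pair of the 10 genes. Their root mean square difference was 0.15 log2 units over the 9 arrays after each gene's own Ctrl mean was taken away. The 250 bases upstream of each start site are therefore printed for both, from the RefSeq promoter table on GRCm38.p6. Capitals mark matches, on either strand, to GGGCGG, the core bound by SP family factors, to TATAAA, to CCAAT and to the half-site of p53. No matches overlap in the windows printed.
Lama5 promoter, chr2:180225860-180226109, - strand: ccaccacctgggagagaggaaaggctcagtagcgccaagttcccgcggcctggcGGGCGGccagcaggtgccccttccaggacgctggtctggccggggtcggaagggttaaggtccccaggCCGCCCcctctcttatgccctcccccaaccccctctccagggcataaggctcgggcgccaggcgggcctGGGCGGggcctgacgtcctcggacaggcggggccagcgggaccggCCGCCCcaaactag
Lamb2 promoter, chr9:108479612-108479861, + strand: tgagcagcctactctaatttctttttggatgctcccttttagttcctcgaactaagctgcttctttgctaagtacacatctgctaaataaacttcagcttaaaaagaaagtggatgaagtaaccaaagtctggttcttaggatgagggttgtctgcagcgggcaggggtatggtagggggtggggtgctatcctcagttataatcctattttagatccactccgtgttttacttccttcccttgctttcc
The Lama5 window held 4 matches to GGGCGG and no match to the others, and the Lamb2 window held none of the 4 motifs. GC content was 72.4% in the Lama5 window and 43.6% in the Lamb2 window, beside a median of 52.4% over all 32851 windows of this length. Over those windows 32.7% held GGGCGG, 12.4% TATAAA, 33.8% CCAAT and 7.13% the p53 half-site. A match is a description of letters and not a binding site, and a window without one shows only that these letters are not in it.

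The table held 8 windows for 7 of the 10 genes, with 2 for Agrn and none for Lama4, Lamc1 and Nid2. Of the 8 windows, 6 held GGGCGG, 0 held TATAAA, 2 held CCAAT and 1 held the p53 half-site.

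Lama2 encodes the α chain of muscle and nerve laminin, and its probes went in different directions, with -0.41 on the brightest and from 0.93 to 2.60 on the 4 other tested probes at 3 dpi against Ctrl. Of those 4, 3 were called higher at 3 dpi, also within the shared slide. However, 2 of the 3 were well above background only on the 3 dpi arrays. Those 2 passed the filter only through the group where they are high, so their calls carry no weight. Its brightest probe lies at chr10:27195173-27195232 (mm9, - strand) and is annotated to an Ensembl transcript. The probes at chr10:27066809-27066868 and chr10:26701380-26701439 are annotated to the RefSeq transcript. The latter was well above background on 2 of 3 Ctrl arrays and on every irradiated array. Against Ctrl it gave 0.90 at 1 dpi, not called, and 1.79 at 3 dpi (adjusted p 0.0025, called). Within the shared slide its 3 dpi value was 1.40 (adjusted p 9.8e-05, called). The first 30 bases of the brightest probe are printed, because the reading of Lama2 depends on whether it is taken.
Lama2 brightest probe: gactactatgagaagaagggaggaaatgac
On the brightest probe the level was -5.11, -5.11 and -5.59 on the Ctrl arrays, -4.75, -4.24 and -4.69 at 1 dpi and -5.34, -5.91 and -5.78 at 3 dpi. The 1 dpi arrays were above all the others, and the Ctrl and 3 dpi arrays overlapped. The log2 fold change was 0.71 at 1 dpi (adjusted p 0.024, SE 0.21) and -0.41 at 3 dpi (adjusted p 0.19) against Ctrl, neither called, and 0.79 and -0.32 within the shared slide. From 1 dpi to 3 dpi this probe fell by 1.11 (adjusted p 0.0043), a called change. The call was lost without 1 dpi replicate 2, at -0.96, and without 3 dpi replicate 2, at -1.0, and also after quantile normalization, at -0.89, and with scaling to the array median, at -0.92.

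The probe of Lama2 at chr10:27066809-27066868 is the 1 the authors' table follows. Its level was -8.51 on Ctrl replicate 1, where it was not well above background, and between -5.15 and -4.34 on the other 8 arrays, and its log2 fold changes of 1.20, 0.93 and -0.26 were not called. The first 2 of these turned to -0.09 and -0.35 within the shared slide, a check chosen after seeing the data, so they rest on Ctrl replicate 1. The choice of the brightest probe rests on that array too, since the mean levels of the brightest probe and of this one were -5.17 and -5.22 over all 9 arrays but -5.18 and -4.81 over the 8 arrays of the shared slide. With the probe brightest within that slide, no change was called on that probe, and 6, 8 and 2 of the 10 genes were called in the 3 comparisons. The probes at chr10:27142258-27142317 and chr10:26699842-26699901 were well above background on the 3 dpi arrays and on no other array. They were at least 1.24-fold and at least 1.14-fold higher at 3 dpi than Ctrl.

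Of the β chains, Lamb1 encodes the form found early and widely in development. Its brightest probe is at chr12:32014411-32014470 (mm9, + strand). The level was -2.10, -2.23 and -2.45 on the Ctrl arrays, -0.55, -0.60 and -0.53 at 1 dpi and 0.11, 0.08 and 0.01 at 3 dpi. The groups did not overlap, with 3 dpi highest and Ctrl lowest. Lamb1 rose 3.25-fold at 1 dpi (log2 1.70, SE 0.09, adjusted p 7.8e-06) and 5.01-fold at 3 dpi (log2 2.33, adjusted p 1.6e-06) against Ctrl, with 1.78 and 2.41 within the shared slide. The log2 difference of 0.63 between 3 dpi and 1 dpi (adjusted p 0.0013) was not called.

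A probe of Lamb1 whose 60 bases span a splice junction is printed, because it reads joined exons and moved with the brightest probe. It aligns to chr12:32012684-32014030 on the + strand.
Lamb1 junction probe: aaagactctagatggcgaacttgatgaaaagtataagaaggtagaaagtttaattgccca
Its log2 fold changes were 1.87 at 1 dpi and 2.33 at 3 dpi against Ctrl, both called, and 0.47 between the 2 times. The probe farther toward the start of the gene, at chr12:31967514-31967573, gave 0.40 at 1 dpi (adjusted p 0.085, not called) and 1.30 at 3 dpi (adjusted p 0.00088, called). The Lamb1 probes at chr12:32009200-32009259 and chr12:31953102-31953161 were not well above background on any array.

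The Lamb1 promoter window is printed beside the probe because it is 1 of 2 windows among the 10 genes that hold CCAAT.
Lamb1 promoter, chr12:31265043-31265292, + strand: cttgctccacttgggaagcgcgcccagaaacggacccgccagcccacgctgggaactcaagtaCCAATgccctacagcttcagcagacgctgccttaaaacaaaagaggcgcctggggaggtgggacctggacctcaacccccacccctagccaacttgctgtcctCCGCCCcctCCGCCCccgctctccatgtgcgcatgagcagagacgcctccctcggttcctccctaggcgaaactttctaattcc
With the same marking as above, it holds 2 matches to GGGCGG and 1 to CCAAT, and its GC content is 62.0%.

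Lamb2 encodes the β chain of mature vascular, muscle and kidney laminins. The array holds 1 probe for it, at chr9:108392189-108392248 (mm9, + strand), printed because every Lamb2 value comes from it.
Lamb2 probe: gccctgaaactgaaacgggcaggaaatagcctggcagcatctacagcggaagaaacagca
The level of Lamb2 was -5.38, -5.13 and -5.09 on the Ctrl arrays, -3.50, -3.64 and -3.63 at 1 dpi and -3.79, -4.06 and -3.86 at 3 dpi. The Ctrl arrays were lowest, the 3 dpi arrays intermediate and the 1 dpi arrays highest, with no overlap. Lamb2 was 3.05-fold higher at 1 dpi (log2 1.61, SE 0.11, adjusted p 2e-05) and 2.45-fold higher at 3 dpi (log2 1.29, adjusted p 6.7e-05) than Ctrl. Within the shared slide the values were 1.52 and 1.20. The difference of -0.32 between 3 dpi and 1 dpi (adjusted p 0.044) was not called, and with normexp background correction the 3 dpi value of 0.59 was no longer called.

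Lamc1 encodes the γ chain of most laminin trimers. Its brightest probe lies at chr1:155066154-155066213 (mm9, - strand). The level was -0.74, -0.94 and -0.98 on the Ctrl arrays, -0.32, -0.55 and -0.24 at 1 dpi and 0.25, 0.16 and 0.18 at 3 dpi. The groups did not overlap and stood in the order Ctrl, 1 dpi, 3 dpi. Lamc1 was 1.43-fold higher at 1 dpi (log2 0.52, SE 0.10, adjusted p 0.0036), which was not called, and rose 2.12-fold at 3 dpi (log2 1.08, adjusted p 0.00013). The within-slide values were 0.59 and 1.16. From 1 dpi to 3 dpi the log2 difference was 0.56 (adjusted p 0.0032), not called. The 3 dpi call was lost at 0.96 with scaling to the array median and at 0.97 relative to the median of all genes.

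The second Lamc1 probe, at chr1:155066156-155066215, shares 58 of 60 positions with the first and is no separate measurement, and it gave 0.63 at 1 dpi and 1.11 at 3 dpi against Ctrl. Another probe spans a splice junction within chr1:155077970-155078896 on the - strand and is printed because its order of the groups differs.
Lamc1 junction probe: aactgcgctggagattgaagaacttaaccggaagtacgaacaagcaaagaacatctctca
Its level was -4.83, -4.66 and -4.95 on the Ctrl arrays, -2.63, -2.77 and -3.06 at 1 dpi and -3.04, -3.67 and -3.51 at 3 dpi. All irradiated arrays were above all Ctrl arrays, and the 1 dpi and 3 dpi arrays overlapped. The log2 fold change was 1.99 at 1 dpi (adjusted p 9.2e-05) and 1.41 at 3 dpi (adjusted p 0.00073) against Ctrl, both called, and -0.58 between 3 dpi and 1 dpi, not called. The authors' table follows this probe for Lamc1. The Lamc1 probe at chr1:155095779-155095838 was well above background on 1 of 9 arrays and was not tested.

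**Figure D2:**
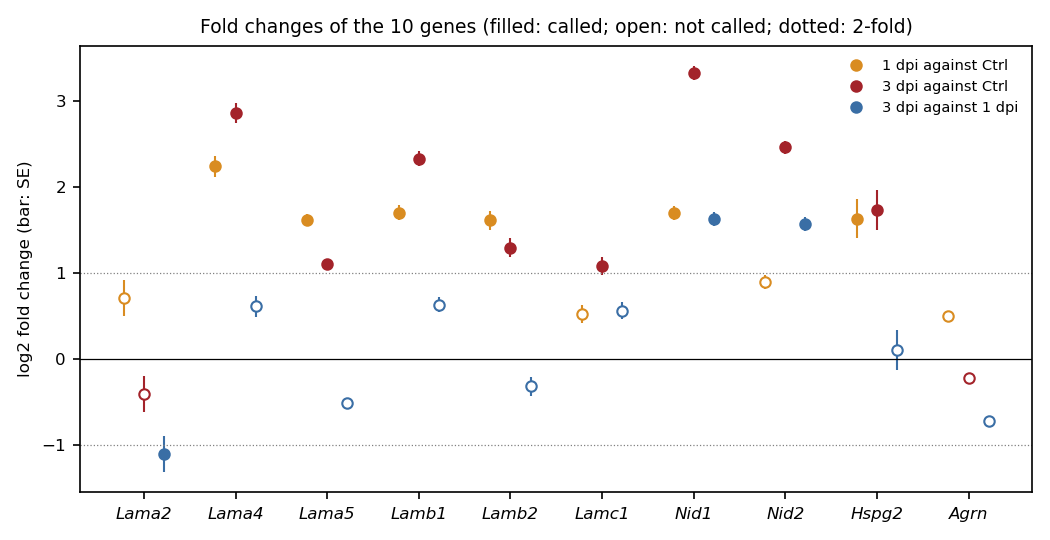
Log2 fold change of each of the 10 genes on its brightest probe (vertical axis, bars are SE) in the 3 comparisons, with filled points for called changes and dotted lines at 2-fold. Nid1 at 3 dpi against Ctrl is highest at 3.33, and Lama2 from 1 dpi to 3 dpi is the lowest at -1.11.

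Nid1 encodes nidogen-1, which binds the laminin γ chain on one side and collagen IV and perlecan on the other. Its brightest probe lies at chr13:13604417-13604476 (mm9, + strand). The level of Nid1 was -2.89, -2.79 and -3.0 on the Ctrl arrays, -1.10, -1.24 and -1.22 at 1 dpi and 0.49, 0.37 and 0.45 at 3 dpi. The groups stood apart by far more than the spread within each, and in the order Ctrl, 1 dpi, 3 dpi. Nid1 rose 3.26-fold at 1 dpi (log2 1.70, SE 0.08, adjusted p 3.3e-06) and 10.1-fold at 3 dpi (log2 3.33, adjusted p 2.1e-07) against Ctrl. Within the shared slide the values were 1.71 and 3.33. It also rose 3.09-fold from 1 dpi to 3 dpi (log2 1.63, adjusted p 1.2e-05).

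A Nid1 probe that spans a splice junction, within chr13:13530138-13555992 on the + strand, is printed as a second reading of the gene.
Nid1 junction probe: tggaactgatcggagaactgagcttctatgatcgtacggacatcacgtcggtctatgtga
It was well above background on all 3 arrays at 3 dpi and on no Ctrl or 1 dpi array, and it was at least 1.67-fold higher at 3 dpi than Ctrl. The probe at chr13:13593389-13593448 was likewise well above background only at 3 dpi, where it was at least 2.55-fold higher than Ctrl and at least 1.44-fold higher than at 1 dpi.

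The Nid1 promoter window is the only 1 of the 8 that holds the p53 half-site, and is printed for that reason.
Nid1 promoter, chr13:13437352-13437601, + strand: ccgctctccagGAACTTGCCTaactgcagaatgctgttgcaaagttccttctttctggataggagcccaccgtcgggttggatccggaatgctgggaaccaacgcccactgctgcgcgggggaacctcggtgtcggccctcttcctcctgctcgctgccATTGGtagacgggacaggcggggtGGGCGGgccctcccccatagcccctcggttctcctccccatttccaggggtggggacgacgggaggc
It also holds 1 match to GGGCGG and 1 to CCAAT, and its GC content is 64.4%. No binding was measured in this series.

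Nid2 encodes nidogen-2, whose sites on laminin overlap those of nidogen-1. The tested probe lies at chr14:20630490-20630549 (mm9, + strand). The level was -4.70, -4.68 and -4.44 on the Ctrl arrays, -3.69, -3.69 and -3.75 at 1 dpi and -2.18, -2.17 and -2.08 at 3 dpi. As with Nid1, the groups did not overlap and stood in the order of time. Nid2 was 1.86-fold higher at 1 dpi (log2 0.89, SE 0.08, adjusted p 1e-04), under the 2-fold threshold and not called. At 3 dpi it rose 5.50-fold against Ctrl (log2 2.46, adjusted p 7e-07) and 2.96-fold against 1 dpi (log2 1.57, adjusted p 1.7e-05). The within-slide values against Ctrl were 0.85 and 2.41. With normexp background correction the value at 3 dpi was 1.72 against Ctrl, still called, and 0.80 against 1 dpi, not called. The other Nid2 probe, at chr14:20625286-20625345, was not well above background on any array.

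On the brightest probes, Nid1 and Nid2 were thus the only ones of the 10 genes called higher at 3 dpi than at 1 dpi. The 5 genes outside the 10 whose pattern over the 9 arrays was nearest to that of Nid1, among 23997 compared, were Susd4, Gpx8, Fabp4, Cyp4b1 and Atp6v0d2, at root mean square differences of 0.09, 0.11, 0.13, 0.13 and 0.15 log2 units. Each gene's own Ctrl mean was again taken away first. At 1 dpi and 3 dpi against Ctrl the log2 fold changes were 1.71 and 3.37 for Susd4, 1.72 and 3.28 for Gpx8 and 1.73 and 3.17 for Fabp4. They were 1.82 and 3.16 for Cyp4b1 and 1.84 and 3.27 for Atp6v0d2. The 5 nearest to Lamc1 were Maged1, Myo6, Rhoj, Oplah and Mt2, at 0.07, 0.07, 0.08, 0.08 and 0.09.

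Hspg2 encodes perlecan, the main heparan sulphate proteoglycan of vascular basement membranes. The brightest of its 2 probes lies at chr4:137126392-137126451 (mm9, + strand). The level was -2.73, -1.89 and -1.93 on the Ctrl arrays, -0.49, -0.56 and -0.61 at 1 dpi and -0.17, -0.66 and -0.54 at 3 dpi. All irradiated arrays were above all Ctrl arrays, the irradiated groups overlapped, and Ctrl replicate 1 was the lowest array. Hspg2 rose 3.10-fold at 1 dpi (log2 1.63, SE 0.23, adjusted p 0.00079) and was 3.31-fold higher than Ctrl at 3 dpi (log2 1.73, adjusted p 0.00091). Without Ctrl replicate 1, which is also the within-slide value, these were 1.36 and 1.46. The difference between 3 dpi and 1 dpi was 0.10 (adjusted p 0.76) and turned to -0.04 without 3 dpi replicate 1.

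The second Hspg2 probe, at chr4:137125445-137125504 on the + strand, is printed because its 3 dpi value fell short of a call.
Hspg2 second probe: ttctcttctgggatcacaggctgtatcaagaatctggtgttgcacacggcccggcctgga
It gave 1.30 at 1 dpi (adjusted p 0.0025, called), 0.65 at 3 dpi (adjusted p 0.072, not called) and -0.66 between the 2 times (adjusted p 0.053).

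Agrn encodes agrin, known for gathering acetylcholine receptors at the nerve-muscle junction and also made in bone marrow. The brightest of its 2 probes is at chr4:155539415-155539474 (mm9, - strand). The level was 1.32, 1.42 and 1.42 on the Ctrl arrays, 1.89, 1.89 and 1.87 at 1 dpi and 1.18, 1.15 and 1.16 at 3 dpi. The groups did not overlap, with 1 dpi highest and 3 dpi lowest. The log2 fold change was 0.50 at 1 dpi (adjusted p 0.00023, SE 0.05) and -0.23 at 3 dpi (adjusted p 0.016) against Ctrl, and -0.72 between 3 dpi and 1 dpi (adjusted p 7.2e-05). None reached 2-fold, so Agrn was called in no comparison. The within-slide values against Ctrl were 0.46 and -0.26, and relative to the median of all genes the values were 0.25 and -0.34.

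The second Agrn probe, at chr4:155546878-155546937 on the - strand, is printed as the other reading of a gene that was not called.
Agrn second probe: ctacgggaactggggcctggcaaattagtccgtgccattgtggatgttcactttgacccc
Its log2 fold changes were 0.64, -0.03 and -0.67 in the same 3 comparisons, none called.

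**Figure D3:**
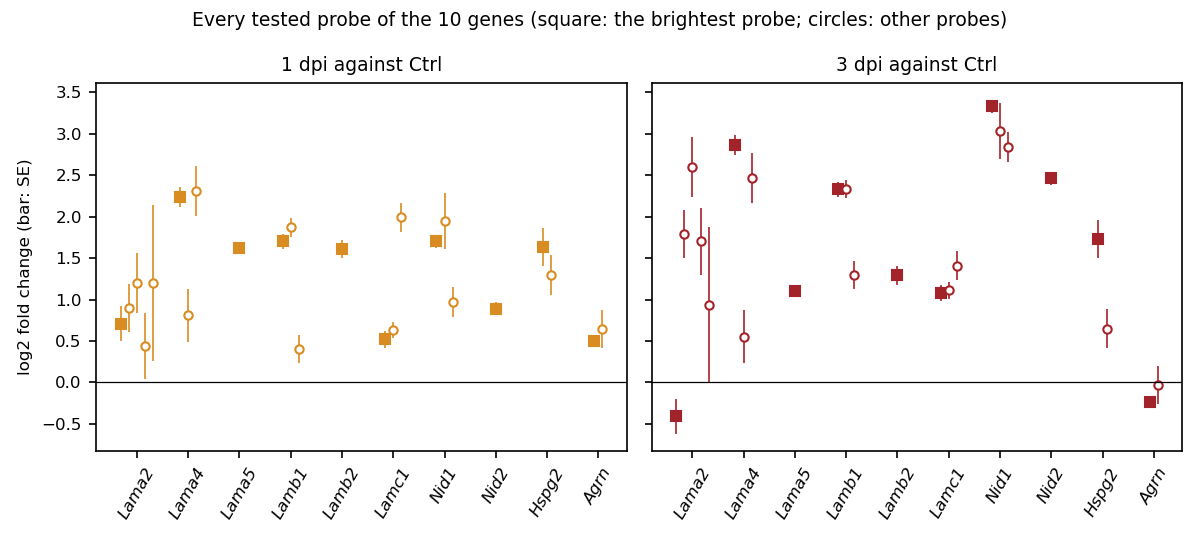
Log2 fold change of every tested probe of the 10 genes (vertical axis, bars are SE) at 1 dpi and 3 dpi against Ctrl, with a square for the brightest probe of each gene. At 3 dpi the brightest Lama2 probe lies at -0.41 and its other probes between 0.93 and 2.60, of which the 0.93 turns to -0.35 without Ctrl replicate 1, and the fitted values of probes not well above background in Ctrl depend on the background.

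The pathway around these genes was described with lists of 65 other basement membrane genes, of which 60 were tested. The calls at 1 dpi were 23 higher and 2 lower than Ctrl. At 3 dpi they were 18 higher and 0 lower, and between 3 dpi and 1 dpi 2 higher and 2 lower. The shares of all genes tested given above for the same calls serve as background. Within the shared slide 18 genes passed as higher and 1 as lower at 1 dpi, and 17 as higher and none as lower at 3 dpi, and the calls lost there are marked below. The median log2 fold changes were 0.67, 0.51 and -0.05, or 0.42, 0.40 and 0.06 relative to the medians of all genes.

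Of the other laminin chains, Lama1 was not well above background on any Ctrl array and was so on every irradiated array. It was called higher at both times, at least 6.23-fold at 1 dpi and at least 9.79-fold at 3 dpi, on the brighter of 2 tested probes, while the fitted values of the dimmer probe were -0.13 and 0.64. Lama3, not well above background in Ctrl, was so on 1 of 3 arrays at 1 dpi and on 3 of 3 at 3 dpi, and it was called higher at both times, by at least 1.67-fold at 3 dpi and with no bound at 1 dpi. Lamb3 was called higher at 1 dpi (log2 1.13, but 0.89 and not called within the shared slide) and not at 3 dpi (0.46). Lamc3 was too dim to be tested.

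Collagen IV, the second network of the basement membrane, is built mostly from the chains of Col4a1 and Col4a2. Col4a1 was called higher at 1 dpi (log2 2.02, adjusted p 9.7e-06) and at 3 dpi (2.32, adjusted p 4.6e-06), and Col4a2 at 1 dpi (1.73) and at 3 dpi (1.74). Col4a4 was well above background on all 1 dpi arrays and on no others, and was at least 2.58-fold higher at 1 dpi than Ctrl and at least 2.99-fold lower at 3 dpi than 1 dpi, both called. Col4a5 was called at 1 dpi (1.20) and not at 3 dpi (0.65), with -0.14 at 1 dpi on its other probe. It was well above background on 2 of 3 Ctrl arrays, and its call was lost within the shared slide, at 0.81. Col4a3 and Col4a6 were not well above background on any array. Col18a1, which encodes the collagen that releases endostatin, was called at both times (2.63 and 2.07). Of the 7 collagens tested 5 were called higher at 1 dpi and 3 at 3 dpi.

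Among 14 other glycoproteins of the basement membrane, 5 passed as higher and 1 as lower at 1 dpi, and 4 as higher at 3 dpi. Sparc, a collagen IV binding protein that is also stored in platelets, rose by log2 2.55 at 1 dpi and 3.16 at 3 dpi on its brightest probe, and its 3 probes ranged from 0.44 to 2.55 and from -0.02 to 3.30. The fibulin genes Fbln1 (1.72 and 1.09) and Fbln2 (1.98 and 1.48) and the integrin ligand gene Npnt were called higher at both times. Npnt was well above background on 1 of 3 Ctrl arrays and on 2 of 3 at 1 dpi, so its fitted values of 1.52 and 1.20 depend on the background, and its 3 dpi call was lost within the shared slide, at 0.86. Ntn1, at 1.06, and Papln, at -1.48, were the other calls at 1 dpi, named after their values were seen. Both were lost within the shared slide, Ntn1 at 0.90 and Papln at -1.45 (adjusted p 0.064).

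Laminin and agrin act on cells through receptors such as integrins and dystroglycan. Of 8 receptor genes tested, 1 was called higher at 1 dpi and 0 at 3 dpi. That gene, Itga7, encodes the α chain of a laminin integrin and had log2 fold changes of 1.03 and 1.13, on either side of the adjusted p threshold. Within the shared slide its 1 dpi value was 0.59 and 0 of the 8 were called, so the call rests on Ctrl replicate 1. An unadjusted p under 0.05 in limma, with no minimum fold, was found for 7 of the 8 at 1 dpi and 5 at 3 dpi. Of all 29410 genes tested, 18253 and 12219 had such a p. The kind of test the methods name called 0 of 8 at either time, with the 2-fold minimum kept. The median of the list was 0.28 at 1 dpi and 0.38 at 3 dpi. Musk, the kinase that agrin acts through at the synapse, was not well above background on any array.

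Among 8 heparan sulphate enzymes, 2 were called higher at 1 dpi and 3 at 3 dpi. Sulf1 (1.85 and 3.0) and Sulf2 (2.59 and 2.41), which trim sulphates from heparan sulphate outside the cell, were called at both times, and the heparanase gene Hpse at 3 dpi (1.13). Sulf1 was well above background on 2 of 3 Ctrl arrays. Of 13 genes that process or fold basement membrane proteins, 7 were called higher at 1 dpi and 6 at 3 dpi, and Mmp14, named after its value was seen, lost its 1 dpi call (1.01) within the shared slide, at 0.90. Serpinh1, the collagen chaperone, had log2 fold changes of 3.30 and 3.62, and Mmp2, a gelatinase that cuts collagen IV, 3.83 and 2.68. Pxdn, the peroxidase that cross-links collagen IV, had 1.91 and 3.29, with probes from -0.10 to 3.29 at 3 dpi, and the protease gene Adamts1 had 2.91 and 3.26. From 1 dpi to 3 dpi Pxdn (1.37) and Sulf1 (1.14) were the 2 genes called higher, and Mmp2 (-1.15) and Col4a4 the 2 called lower.

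**Figure D4:**
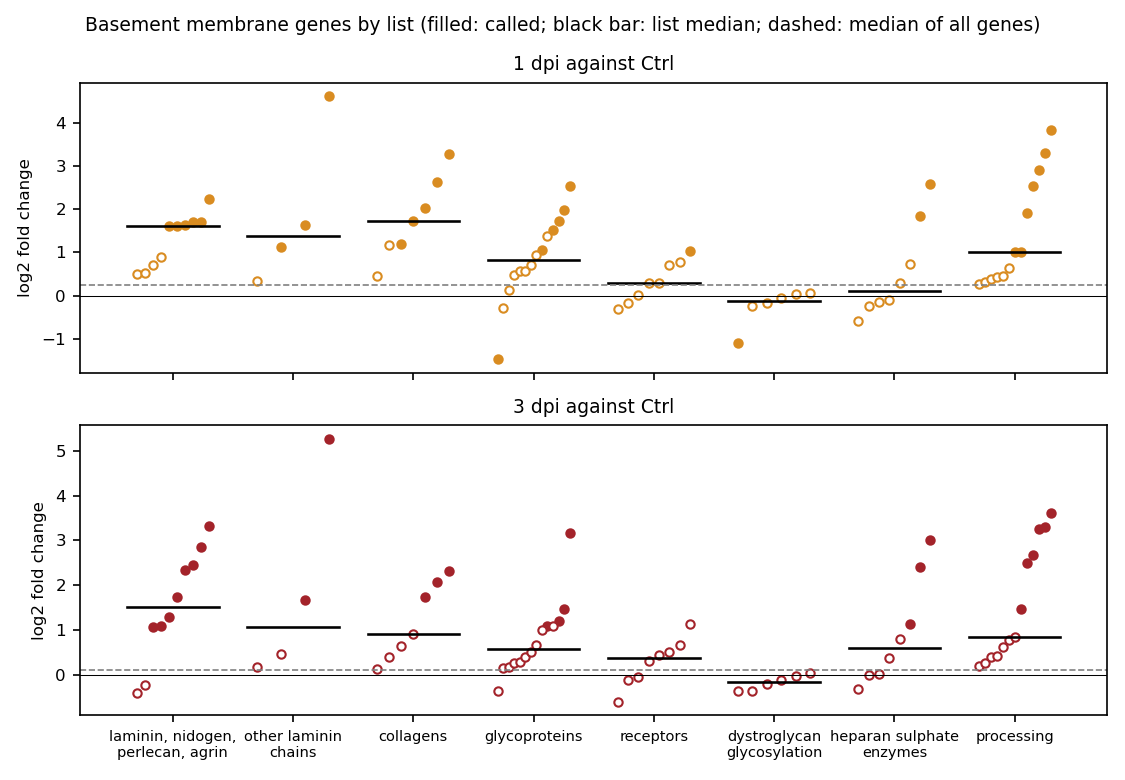
Log2 fold change of each tested gene (points, vertical axis) by list of basement membrane genes (horizontal axis) at 1 dpi and 3 dpi against Ctrl, with filled points for called genes, bars at the list median and a dashed line at the median of all genes. The 10 genes have medians of 1.61 and 1.51, and the highest point, Lama1, is a fitted value whose bound is at least 6.23-fold at 1 dpi and at least 9.79-fold at 3 dpi.

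The labels name the cells as MKs, and this was compared with 15 MK markers. All 15 were tested and none was below the background limit on every array. The most abundant was Pf4, with log2 fold changes of 0.09 at 1 dpi and 0.01 at 3 dpi. The summed level of the 15, on the linear scale with the array's 75th percentile as 1, was 171, 152 and 151 on the Ctrl arrays, 161, 148 and 145 at 1 dpi and 169, 166 and 165 at 3 dpi. In limma 0 of 15 were called at either time, with medians of -0.09 and 0.06. At an unadjusted p under 0.05 in limma, with no minimum fold, there were 8 at 1 dpi and 7 at 3 dpi. The kind of test the methods name also called 0, with the 2-fold minimum kept. Each MK marker was well above background on at least 1 array, and a sum is weighted to the most abundant genes. The sums at 1 dpi overlapped those of Ctrl, while those at 3 dpi lay below Ctrl replicate 1 and above both Ctrl arrays of the shared slide.

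The summed markers of some other marrow cells rose after IR, as most of the 10 genes did, and those of others fell. The marrow stromal list, 14 genes with Cxcl12 the most abundant, summed to between 10.3 and 10.8 on the Ctrl arrays, 52.1, 44.9 and 48.8 at 1 dpi and 99.1, 90.3 and 97.6 at 3 dpi. Its groups stood in the order of time without overlap, with 10 of 14 genes called higher at 1 dpi and 10 at 3 dpi, and medians of 1.52 and 3.57. Cxcl12 had log2 fold changes of 2.71 and 3.50, Ebf3 2.40 and 4.10, Foxc1 2.43 and 4.02, and Adipoq 0.75 (not called) and 4.23. Pdgfrb (-0.41 and -0.39), Pdgfra (0.86 and 0.41) and Kitl (0.28 and 0.33) were called at neither time. Lepr was called at 1 dpi (1.39) and not at 3 dpi (0.42). Pdgfrb, Pdgfra, Kitl and Lepr were named after their values were seen.

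The endothelial list, 13 genes with Egfl7 the most abundant, summed to 10.2, 9.55 and 9.76 on the Ctrl arrays, 16.8, 14.8 and 15.1 at 1 dpi and 21.3, 18.3 and 18.7 at 3 dpi, again in order and without overlap. At 1 dpi 4 of 13 were called higher, Cdh5 (1.74), Flt4 (1.21), Kdr (1.23) and Plvap (1.49), the last 2 named after their values were seen. At 3 dpi 8 of 13 were called, among them Cdh5 (2.40), Flt4 (2.15) and Cldn5 (2.08). Flt4 was well above background on 2 of 3 arrays in Ctrl and at 1 dpi. Egfl7 itself was not called (0.53 and 0.19). Tek (-0.91 and 0.02), Tie1 (0.17 and -0.28), Pecam1 (0.11 and 0.02) and Esam (0.45 and 0.57) were called at neither time. Tek, Tie1, Pecam1 and Esam were named after their values were seen.

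The mural list, 8 genes with Mcam the most abundant, summed to 48.3, 51.0 and 51.4 on the Ctrl arrays, at most 112 and on average 109 at 1 dpi and 53.3, 57.8 and 56.4 at 3 dpi. It was highest at 1 dpi. Tagln (4.12), Rgs5 (1.40), Mcam (1.56) and Cspg4 (1.11, named after its value was seen) were called higher at 1 dpi, and Tagln (2.05) and Rgs5 (1.66) at 3 dpi. Acta2 (0.28 and -0.03), Myh11 (0.69 and 0.12), Notch3 (0.78 and 0.66) and Des (0.74 and 0.53), named likewise, were called at neither time.

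The adipocyte list, 7 genes with Fabp4 the most abundant, summed to 5.16, 4.39 and 4.61 on the Ctrl arrays, 14.5, 14.0 and 13.8 at 1 dpi and 35.1, 33.3 and 36.6 at 3 dpi. Its sums stood in the same order, with 2 of 7 called higher at 1 dpi, Fabp4 (1.73) and Lpl (2.24), and 5 of 7 at 3 dpi. Those were Adipoq (4.23), Fabp4 (3.17) and Lpl (3.13), with Cidec (1.77) and Pparg (1.51) named after their values were seen. Lep (0.74 and 0.32) and Plin1 (1.04 and 0.34), named likewise, were called at neither time. Adipoq is also on the stromal list.

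The osteoblast list, 7 genes with Col1a1 the most abundant, summed to 2.64, 2.81 and 2.90 on the Ctrl arrays, 11.3, 10.3 and 10.9 at 1 dpi and 20.4, 19.2 and 20.5 at 3 dpi. Its groups were in the same order, with 4 of 7 called higher at 1 dpi and 5 of 7 at 3 dpi. At both times these included Bglap (2.54 and 3.75), Col1a1 (2.22 and 3.15, also on the stromal list) and Alpl (1.70 and 2.71, named after its values were seen). Dmp1 was called at both times and was well above background on 1 Ctrl array, on no 1 dpi array and on all 3 dpi arrays, and Ibsp (2.0, named after its value was seen) was called at 3 dpi. Runx2 (0.44 and -0.35) and Sp7 (0.88 and 0.64), named likewise, were called at neither time.

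The macrophage list, 10 genes with Csf1r the most abundant, summed to 59.7, 53.3 and 51.2 on the Ctrl arrays, 78.8, 74.0 and 78.0 at 1 dpi and 136, 133 and 131 at 3 dpi. This list too had its lowest sums in Ctrl and its highest at 3 dpi. At 1 dpi 4 of 10 were called higher, Siglec1 (1.62), C1qb (1.51), C1qc (1.39) and Cd68 (1.36, named after its value was seen), and Cd163 (-2.07, named likewise) was called lower. At 3 dpi 7 of 10 were called higher, led by Siglec1 (2.84), C1qb (2.51) and C1qc (2.39). Cd163 was not called at 3 dpi (0.74). Adgre1 (-0.21 and 0.50) and Vcam1 (-0.14 and 0.75), named likewise, were called at neither time.

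The Schwann cell list, 6 genes with Mbp the most abundant, summed to 23.0, 20.8 and 20.2 on the Ctrl arrays, 16.1, 17.0 and 16.2 at 1 dpi and 16.6, 16.2 and 15.2 at 3 dpi. The sums were lower after IR, while single genes went both ways, with 3 of 6 above 0 at 1 dpi, and 4 of 6 at 3 dpi or 3 of 6 within the shared slide. S100b, at 3.13 at 3 dpi, was the only call of this list against Ctrl. Of the 7 T and NK cell genes, with Nkg7 the most abundant, Ncr1 (1.02) was called higher at 1 dpi and Klrb1c (1.97), Ncr1 (1.77) and Cd3g (1.74) at 3 dpi. The sums of that list were 29.2, 30.8 and 29.3 on the Ctrl arrays, 42.6, 39.8 and 40.0 at 1 dpi and 35.3, 31.8 and 31.1 at 3 dpi.

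The neutrophil list, 9 genes with Mpo the most abundant, summed to 1030, 1090 and 1080 on the Ctrl arrays, 1850, 1720 and 1690 at 1 dpi and 1150, 1030 and 1090 at 3 dpi, and was highest at 1 dpi. S100a8 (1.14) and S100a9 (1.02) were its 2 calls at 1 dpi, and 0 of 9 were called by limma at 3 dpi. At 3 dpi 1 of 9 had an unadjusted p under 0.05 in limma, with no minimum fold. The test the methods name called 0 there, with the 2-fold minimum kept. The B cell list, 8 genes with Cd79b the most abundant, summed to 28.9, 27.3 and 28.0 on the Ctrl arrays, 5.81, 5.56 and 5.73 at 1 dpi and 5.52, 5.37 and 5.35 at 3 dpi. It was lower on every irradiated array, with 7 of 8 called lower at both times, led by Vpreb3 (-5.42 and -3.96), Igll1 (-4.70 and -3.43) and Ms4a1 (-4.13 and -3.77).

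The erythroid list, 8 genes with Hba-a1 the most abundant, summed to 105, 85.4 and 88.6 on the Ctrl arrays, 245, 200 and 197 at 1 dpi and 33.5, 33.3 and 30.7 at 3 dpi. At 1 dpi Hba-a1 (1.34) and Hbb-b1 (1.08, named after its value was seen) were called higher and 5 of 8 lower, and at 3 dpi 7 of 8 were called lower. Among the lower genes at 1 dpi were Ahsp (-7.62), Slc4a1 (-3.78), Klf1 (-2.09) and Epor (-1.28), the last 2 named after their values were seen.

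In each of these lists, 0 markers were short of the background limit on all 9 arrays. The stromal, endothelial, adipocyte, osteoblast and macrophage sums had the same order of the groups as Lama4, Lamb1, Lamc1, Nid1 and Nid2. The mural, neutrophil, erythroid and T and NK cell sums had their highest values at 1 dpi, as did Lama5, Lamb2, Agrn and the brightest probe of Lama2. Of these, the mural and the T and NK cell sums had 3 dpi above Ctrl without overlap, as Lama5 and Lamb2 did. A sum is weighted to the most abundant genes. For T and NK cells the list medians against Ctrl were 0.56 at 1 dpi and 0.76 at 3 dpi, whereas the sums were higher at 1 dpi than at 3 dpi. For erythroid cells the medians were -1.68 and -1.92. That list was thus below Ctrl at 1 dpi while its sum was above, and both were below Ctrl at 3 dpi. Within the shared slide 3 of the marker calls against Ctrl were lost, all at 1 dpi, for Ncr1 (0.91), S100a9 (0.97) and Dmp1 (1.08, adjusted p 0.09). The part of these cell types in the values of the 10 genes was not tested.

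**Figure D5:**
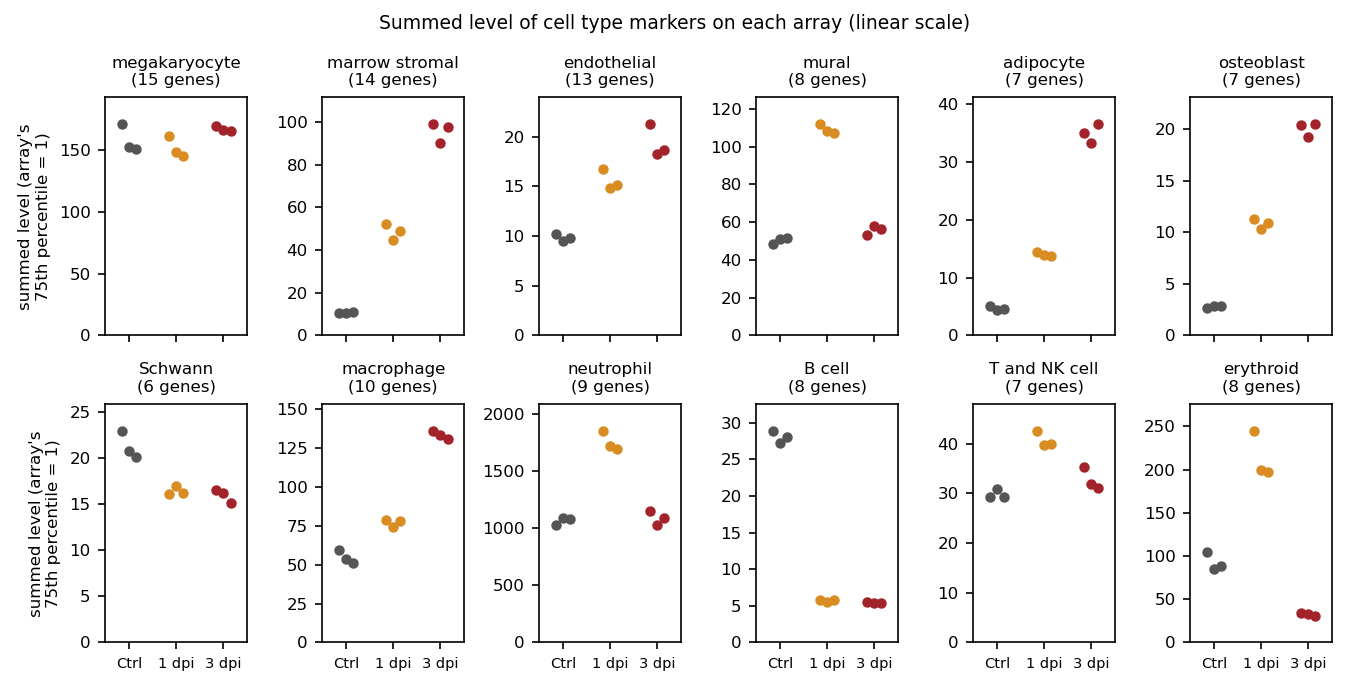
Summed level of the markers of each cell type on each array (vertical axis, linear scale, array's 75th percentile as 1), by group (horizontal axis), with 1 point for each array. The MK sums stay between 145 and 171, while the marrow stromal sums go from at most 10.8 in Ctrl to at least 90.3 at 3 dpi.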

How the data were processed

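The deposited files per array hold, per the file headers, Agilent Feature Extraction 10.7.1.1 intensity values on a linear scale, background-subtracted and detrended by the authors. The deposited matrix holds, per the labels, 1 log2 value for each of 27275 gene names and sample, normalized by the authors. The methods describe an Affymetrix array, whereas the files are Agilent, so the wet-lab steps of the methods were not relied on. All 9 samples were used and 0 columns of sample values were left unused.

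Probes were named through RefSeq where annotated (32984) and by the array's own name otherwise (23601), outlier spots were dropped, repeated spots were averaged in log2, and 20 probes with no spot left on at least 1 array were left out. Log2 intensities were scaled to the 75th percentile of each array's non-control spots. A probe entered the test when any 1 group had it well above background on each of its 3 arrays, and the brightest such probe stood for its gene. limma 3.58.1 in R 4.3.3 fitted 1 mean for each group over 9 arrays, with Benjamini-Hochberg adjustment over 29410 genes, and other probes were tested in a fit over all kept probes. Code also used data.table (version 1.17.8), Python 3.11.15 and matplotlib 3.10.9, and was checked on simulated data.

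The alternatives were quantile normalization, scaling to the array median, values relative to the median of all genes, normexp background correction (offset 50), other filters, the mean of a gene's probes, the deposited table, no minimum fold, the t-test of the methods with and without adjustment, the compared groups alone, replicate and slide blocks, leaving out each array, and each other probe. The t-tests of the methods kept the 2-fold minimum. Choosing the brightest probe within the shared slide, and fitting other probes there, were added after seeing the data.

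The members and lists were chosen with earlier results of these data known. The genes named are every member; from each pathway list up to 4 called genes with the largest change against Ctrl, and the other laminin and collagen IV chains; from each marker list the most abundant gene, any marker never well above background and up to 3 called genes with the largest change; and the 5 genes nearest to Nid1 and to Lamc1. Genes named beyond this rule are marked as named after their values were seen. Some results under this rule need items withheld for evaluation and are not reported here.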

Additional observations from a re-analysis of the deposited data

Results flagged for a closer look

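The difference between the times after IR was itself tested for each of the 10 genes, and 3 genes differed by at least 2-fold. The brightest probe of Lama2 fell by 1.11 on the log2 scale from 1 dpi to 3 dpi (SE 0.21, adjusted p 0.0043), but by 0.26, not called, on the probe that is brightest within the shared slide. Nid1 was higher at 3 dpi than at 1 dpi by 1.63 (SE 0.08, adjusted p 1.2e-05), and Nid2 by 1.57 (SE 0.08, adjusted p 1.7e-05). In each case the arrays at 3 dpi and at 1 dpi did not overlap, but this also held for 9 of the 10 genes and for 65.5% of all genes tested. Single outlying arrays were not tested for in groups of 3 arrays. The values of Ctrl replicate 1 correlated at 0.987 with those of each other Ctrl array, while Ctrl replicates 2 and 3 correlated at 0.998.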

How the results depend on the processing

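Each count was recomputed under 24 alternatives, 1 of them added after seeing the data, and counts beyond 1.5 times the main value are given. Genes called at 1 dpi, 3 dpi and 3 dpi against 1 dpi numbered 2793, 1282 and 1604 with normexp background correction and 16443, 9416 and 13125 with no minimum fold change, and 4489 in the last comparison with no filter on dim probes. With no minimum fold change, 10 of the 10 genes were called at 1 dpi and 9 between 3 dpi and 1 dpi, and 40, 33 and 22 of the other basement membrane genes. Between 3 dpi and 1 dpi, 2 of those were called with probes well above background on all 9 arrays and 11 in the authors' deposited table, and the cause was not tested. A lower fold threshold admits more genes by construction.

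Leaving out 1 array at a time gave 3561 to 5367 genes at 1 dpi, 2347 to 2768 at 3 dpi and 2264 to 2812 between the times. The 10 genes gave 6 to 6, 8 to 8 and 2 to 3 calls, and the other basement membrane genes 19 to 25, 17 to 20 and 3 to 6. With replicate number as a block, the paired counts were 4273, 2498 and 2494 genes, and 6, 8 and 3 of the 10 genes, and 24, 17 and 4 of the others.

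For single genes, 393 of 420 values under other settings kept their direction and call, 9 lost the call, 13 gained it and 5 reversed. Leaving out arrays, 267 of 270 kept both, 2 lost the call and 1 reversed. With other probes 24 of 42 kept both, 6 lost the call, 2 gained it and 10 reversed. The mean of a gene's probes gave Lama2 1.32 at 3 dpi and 0.43 from 1 dpi to 3 dpi, and Hspg2 -0.28. The deposited table, which follows another probe for these genes, gave Lama2 0.93 at 3 dpi and Lamc1 -0.41 from 1 dpi to 3 dpi. Hspg2 between the times ranged from -0.04, without 3 dpi replicate 1, to 0.20 as single arrays were left out. The other probes of Lama2 gave 1.79, 2.60, 1.70 and 0.93 at 3 dpi against Ctrl and 0.88, 1.40 and 1.27 against 1 dpi. The 2.60 and 1.70, and the 1.40 and 1.27, set 3 dpi against groups with 0 of 3 arrays well above background, so they are not sizes, and only the bounds of 1.24-fold and 1.14-fold against Ctrl hold. In checks added after seeing the data, the probe with 0.93 gave -0.35 at 3 dpi and -0.09 at 1 dpi within the shared slide, where it is the brightest of Lama2. Of the values of other probes 40 of 42 kept direction and call there, and with the probe brightest there standing for each gene 28 of 30 did. Those of Hspg2, Lama4 and Lamc1 gave -0.66, -0.26 and -0.58 between the times. Why probes differ was not tested. Probes near background, on 69.1% to 81.8% of spots well above it, limit the fold changes of dim genes to bounds.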
